A study of Mus musculus with 3 samples.

Results

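The respiratory chain genes of both genomes were followed through brain cells of mice that had 1 or no working copy of Cx3cr1, the gene of the fractalkine receptor of microglia and monocytes. Members were all rows of the RNA tables whose symbol starts with Ndufa, Ndufb, Ndufc, Ndufs, Ndufv, Sdh, Uqcr, Cox4, Cox5, Cox6, Cox7, Cox8, Atp5 or mt-, which gave 107 of the 19274 genes in either table. Of these, 94 lie in the nucleus and 13 on the mitochondrial genome. By symbol the nuclear members held 38 complex I subunits, 8 complex I assembly factors, 4 complex II subunits, 4 complex II assembly factors, 8 genes of complex III, 16 of complex IV and 16 of the ATP synthase. The prefixes take in genes named for a complex whose products also have other places, such as Ndufab1, the mitochondrial acyl carrier protein, and Ndufa4, which is now known as a complex IV subunit.

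The respiratory chain sits in the inner mitochondrial membrane. Complexes I and II pass electrons to ubiquinone, complex III passes them on to cytochrome c and complex IV gives them to oxygen, and the proton gradient that complexes I, III and IV build drives the ATP synthase. Complexes I, III and IV and the ATP synthase are built from subunits of both genomes, whereas all complex II subunits are nuclear. The mitochondrial genes are transcribed from long precursors that are cut into single transcripts. Several nuclear subunits of complex IV exist in paralogous forms that are known to differ between tissues.

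Brain immune cells of 8 female C57Bl/6 mice aged 2 to 3 months, 1 hemisphere each, were stained with 35 barcoded antibodies and pooled by hashtag antibodies into 1 preparation of 10x 3′ single-cell RNA sequencing. The groups were 2 metastasis-bearing Cx3cr1-/- mice, 2 metastasis-bearing Cx3cr1+/- mice, 2 naive Cx3cr1-/- mice and 2 naive Cx3cr1+/- mice, so every animal lacked at least 1 Cx3cr1 allele and wild-type animals were not analysed here. Metastases came from E0771 cells, a mouse mammary carcinoma line, given through the carotid artery about 2 weeks before the brains were taken, and naive animals had no metastases. Each hashtag is taken as 1 brain and as the replicate, and where 4 values are listed for one state below, the 2 Cx3cr1-/- brains come before the 2 Cx3cr1+/- brains.

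After 1138 barcodes present in both tables were dropped, 8443 metastasis-bearing and 2736 naive cells remained. Levels are depth-corrected UMIs (unique molecular identifiers, the count of captured RNA molecules) summed over the cells of a brain, given as a percent of all corrected UMIs or per 1000000 of them (CPM). The median cell had 19767.5 and 71585 raw UMIs in the metastasis-bearing Cx3cr1-/- brains, against 7823.5 and 8199.5 in the metastasis-bearing Cx3cr1+/- brains, and from 6181 to 7096 in the 4 naive brains. All 107 members had UMIs in both tables, the fewest being 78 of Cox8b in metastasis-bearing and 57 of Cox7a1 in naive cells. The targeted gene followed the labels: Cx3cr1 stood at 113.5 and 31.6 CPM in microglia-like cells of the metastasis-bearing Cx3cr1-/- brains, against 1363 and 1464 CPM in Cx3cr1+/- brains, and at 75.6 and 71.4 CPM in naive Cx3cr1-/- brains, against 1953 and 1852 CPM. These are log2 differences of -4.31 (SE 0.42, adjusted p = 0.0176, limma) and -4.52 (SE 0.08, adjusted p = 5.17e-27, limma).

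Cells were grouped by the authors' RNA clusters, named here as "-like" from marker lists. The label "brain immune cells" did not cover all of them. Krt8-high cells, which carried epithelial and cell cycle transcripts, were the largest cluster of the metastasis table with 2732 cells, and vascular-like and choroid plexus-like cells were present in both tables. The naive table also held 136 Krt8-high cells, which goes against its label, and 53 of the 1860 cells in the authors' naive microglia gate and 33 of the 248 cells in their naive BMDM gate were of that cluster. A cluster of few UMIs (640 and 554 cells, medians of 2147 and 1405 raw UMIs) had no marker list at a high level in the metastasis table and stays unnamed. Its naive counterpart had the microglia list at 3633 CPM, against 19945 CPM in naive microglia-like cells. The clusters were made from the same RNA values, so levels between them are a description with no test. The tables were corrected separately, so metastasis-bearing and naive values stand side by side and were not compared.

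The share of RNA from the mitochondrial genome spread far more widely between classes than the share from the nuclear members. In metastasis-bearing brains the 13 mitochondrial genes made up 1.28 ± 0.32% of UMIs in neutrophil-like cells, 1.68 ± 0.16% in Krt8-high cells, 2.54 ± 0.20% in monocyte/macrophage-like cells and 3.22 ± 0.11% in NK-like cells (SD, n = 4 brains each, here and below). Microglia-like cells had 3.64 ± 0.27% and T-like cells 3.71 ± 0.25%, which overlapped brain by brain. Vascular-like cells reached 5.13 ± 0.85%, B-like cells 5.89 ± 0.68% and choroid plexus-like cells 6.61 ± 1.88%. The few-UMI cluster stood apart at 30.0 ± 5.2%. In naive brains Krt8-high cells had 1.69 ± 0.17%, choroid plexus-like cells 8.45 ± 1.95%, mural-like cells 9.96 ± 2.03% and the few-UMI cluster 13.03 ± 1.79%.

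Among the named classes the nuclear members had their lowest mean share in microglia-like cells. In metastasis-bearing brains the nuclear share there was 1.595, 1.495, 1.352 and 1.344%, a mean of 1.45 ± 0.12%. Monocyte/macrophage-like cells had 2.04 ± 0.07%, Krt8-high cells 2.21 ± 0.06%, T-like cells 2.30 ± 0.03%, vascular-like cells 2.38 ± 0.06% and NK-like cells 2.45 ± 0.03%, and no brain of these 5 classes overlapped with any microglia-like value. Neutrophil-like cells (1.65 ± 0.24%) and the few-UMI cluster (1.33 ± 0.19%) did overlap with them. In naive brains the nuclear share of microglia-like cells was 1.10, 1.05, 1.06 and 1.09%, against 2.06, 2.07, 2.10 and 2.00% in T/NK-like cells. The highest share in either table was that of choroid plexus-like cells, with 3.09 ± 0.26% in metastasis-bearing and 4.94 ± 0.54% in naive brains, from 37 and 22 cells. Per brain these were 7, 2, 11 and 17 cells and 6, 7, 1 and 8 cells. Single-brain values of this class, here and below, thus rest on as few as 1 cell. In this epithelium, which makes cerebrospinal fluid, both genomes stood high. Microglia-like cells of metastasis-bearing brains paired a low nuclear share with a mitochondrial share in the middle of the range. In naive brains their mitochondrial share was 2.50 ± 0.16%, and only Krt8-high cells had a lower mean among the named classes. The log2 ratio of mitochondrial to nuclear UMIs was 1.33 in microglia-like cells from metastasis-bearing brains, against -0.40 in Krt8-high and 0.31 in monocyte/macrophage-like cells. It was higher in B-like cells (1.56), and vascular-like (1.09) and choroid plexus-like cells (1.05) lay closer below.

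**Figure D1:**
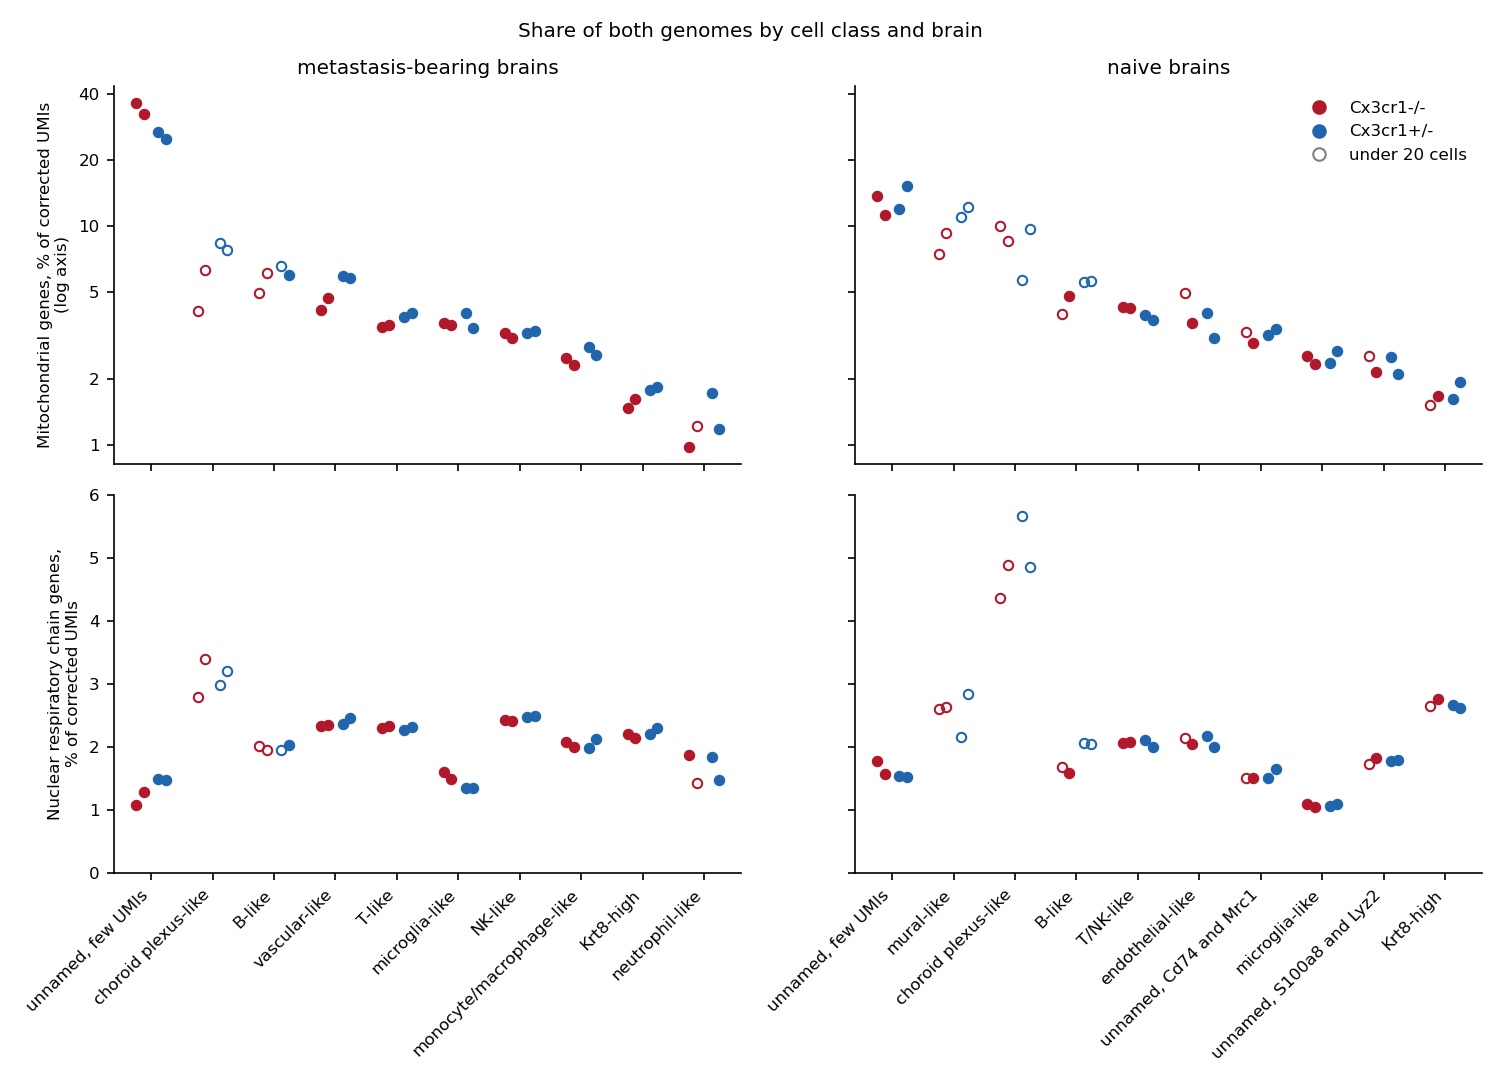
Percent of corrected UMIs from the 13 mitochondrial genes (top, log axis) and from the 94 nuclear members (bottom) by class, with 1 point per brain, red for Cx3cr1-/- and blue for Cx3cr1+/-, and open symbols for fewer than 20 cells; metastasis-bearing brains are on the left and naive brains on the right. Microglia-like cells have the lowest nuclear mean of the named classes, with points at 1.344 to 1.595% in metastasis-bearing brains, and the few-UMI cluster the highest mitochondrial points.

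Depth differed widely between classes and did not follow the mitochondrial share in one order. In metastasis-bearing brains the median cell had 3282 raw UMIs among neutrophil-like, 103001.5 among Krt8-high, 12032.5 among monocyte/macrophage-like, 4136 among NK-like, 8470 among microglia-like, 5409 among T-like, 9011 among vascular-like, 3341 among B-like and 34954 among choroid plexus-like cells, listed from the lowest to the highest mitochondrial share. Within T-like cells the mitochondrial share was 5.24% up to 2500 and 2.38% over 20000 raw UMIs. Monocyte/macrophage-like cells had 3.08% up to 2500, 5.27% from 2500 to 5000 and 1.94% over 20000. Microglia-like cells had 4.25% from 2500 to 5000 and 3.23% over 20000. NK-like cells ran the other way, with 3.21% up to 2500 and 3.78% from 10000 to 20000. The part of depth and of free RNA in these shares was not tested.

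The low nuclear level of microglia-like cells was spread over the complexes. The summed complex I subunits had 4532 ± 387 CPM in microglia-like cells from metastasis-bearing brains, against 6038 ± 216 CPM in monocyte/macrophage-like and 10819 ± 506 CPM in choroid plexus-like cells. The summed ATP synthase genes had 4123 ± 390 CPM, against 5936 ± 206 and 7750 ± 963 CPM in the same classes. Complex IV had 3821 ± 346 CPM, against 5795 ± 185 and 8087 ± 948 CPM, and complex III 1456 ± 113 CPM, against 2026 ± 69 and 3369 ± 504 CPM. Complex II, the small complex that also works in the citric acid cycle, had 294 ± 16 CPM, against 395 ± 17 and 472 ± 104 CPM. In naive brains microglia-like cells had 3524 ± 73 CPM of complex I and 2745 ± 99 CPM of complex IV, against 6146 ± 265 and 5554 ± 246 CPM in T/NK-like cells.

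Gene by gene, 42 of the 94 nuclear members were lower in microglia-like cells than in all 5 of the Krt8-high, monocyte/macrophage-like, T-like, NK-like and vascular-like classes in each of the 4 metastasis-bearing brains, and 0 were higher than all 5. Against single classes the number lower in every brain was 64 for monocyte/macrophage-like, 65 for Krt8-high, 68 for NK-like, 69 for T-like and 78 for vascular-like cells. The number higher in every brain was 7, 11, 6, 7 and 1 in the same order. In naive brains 69 members were lower and 4 higher than in T/NK-like cells in every brain. Against the few-UMI cluster 4 members were lower and 20 higher in microglia-like cells of all 4 metastasis-bearing brains, and 58 lower and 18 higher in those of all 4 naive brains. These orders were not counted over all genes. They therefore do not show whether the members were lower more often than other genes.

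The core subunits did not all share this pattern. Cox5a, Cox5b, Uqcrfs1, Uqcrc1, Atp5a1 and Ndufv1 were among the 42 members lower than in all 5 classes in every brain. Sdhb, Sdha, Atp5b and Ndufs1 were not. Cox5b, a nuclear subunit of complex IV, had 283.4, 257.3, 206.1 and 220.0 CPM in microglia-like cells from metastasis-bearing brains, against 512.0, 488.4, 467.7 and 511.5 CPM in monocyte/macrophage-like cells. Cox5a, its partner subunit, had 236.4, 177.2, 183.7 and 184.8 CPM, against 417.7, 382.5, 399.1 and 445.1 CPM. Both were lower by a wide gap in every brain. Uqcrfs1, the Rieske iron-sulfur protein of complex III, had 98.7 ± 15.1 CPM in microglia-like cells, against 160.5 ± 5.3 CPM in monocyte/macrophage-like cells. Sdhb, the iron-sulfur subunit of complex II, had 115.3 ± 8.1 CPM, against 175.0 ± 10.3 CPM.

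The catalytic subunits of the ATP synthase and the flavoprotein of complex II were closer between these classes. Atp5b, the catalytic beta subunit, had 377.2, 475.8, 336.4 and 333.3 CPM in microglia-like cells, against 425.2, 407.4, 387.9 and 440.5 CPM in monocyte/macrophage-like cells, with overlap. Atp5a1, the alpha subunit, had 289.2 ± 21.1 CPM, against 316.4 ± 12.3 CPM. Sdha was higher in microglia-like cells within every brain, with 76.0, 70.4, 77.4 and 86.8 CPM, against 64.7, 61.3, 74.2 and 65.0 CPM. Ndufs1, the largest iron-sulfur subunit of complex I, had 22.0 ± 3.1 CPM, against 23.2 ± 1.8 CPM, and Ndufv1, which binds NADH, 45.05 ± 6.9 CPM, against 58.6 ± 3.0 CPM. Uqcrc1, a core protein of complex III, had 88.9 ± 3.8 CPM, against 111.4 ± 6.9 CPM.

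The spread between class means differed widely from member to member. Over the classes of metastasis-bearing brains the range of class means, on the log2(CPM + 10) scale, had a median of 1.39 over the 90 nuclear members with a mean above 10 CPM, and 16 of them had a range under 1. Sdhb was the steadiest with a range of 0.56, followed by Cox6a1, the common form of a small complex IV subunit, with 0.68. Of all 94, 47 were highest in choroid plexus-like, 19 in Krt8-high and 9 in vascular-like cells, and 0 in microglia-like cells. The class with the lowest mean was microglia-like for 41 and neutrophil-like for 30. These counts were not made over all genes, and the choroid plexus-like and neutrophil-like means rest on 37 and 94 cells.

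Among the 10 widest ranges, 4 belonged to tissue-restricted paralogs. Cox6b2, the testis-enriched form of a complex IV subunit, had the widest range, 4.38. In choroid plexus-like cells it had 132.8, 219.9, 253.7 and 216.0 CPM in metastasis-bearing and 379.4, 420.7, 180.3 and 398.9 CPM in naive brains, on 112 and 94 UMIs, while its level was between 0 and 3.5 CPM in microglia-like cells from metastasis-bearing brains. Cox8b, the form of heart and skeletal muscle, had 66.4, 62.8, 241.0 and 76.2 CPM in choroid plexus-like cells of metastasis-bearing and 258.0, 650.2, 270.5 and 375.5 CPM in those of naive brains, on 65 and 103 UMIs. Cox8b had 0 UMIs in T-like, microglia-like and NK-like cells of metastasis-bearing brains, and its range was 3.60. Of its 78 UMIs in metastasis-bearing cells 65 were in the choroid plexus-like ones.

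The muscle form Cox7a1 was also found there, with 28.5, 157.1, 31.7 and 55.0 CPM in metastasis-bearing and 60.7, 165.7, 0 and 164.3 CPM in naive brains. It rested on 26 and 31 UMIs, and its brains spread widely.

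Ndufa4l2 and Cox4i2, hypoxia-linked paralogs of Ndufa4 and Cox4i1, were highest in vascular-like cells of metastasis-bearing brains. Ndufa4l2 had 101.5, 62.7, 102.6 and 98.6 CPM in vascular-like cells of metastasis-bearing brains and 155.8, 28.2, 50.5 and 145.4 CPM in endothelial-like cells of naive brains, with a range of 3.34. In the 23 mural-like cells of naive brains it had 14.3, 0, 0 and 23.9 CPM. Cox4i2 had 57.9, 25.7, 50.7 and 32.6 CPM in vascular-like cells of metastasis-bearing brains. It had 109.0, 24.7, 18.4 and 94.3 CPM in endothelial-like and 28.6, 28.6, 56.8 and 47.8 CPM in mural-like cells of naive brains. The naive brains differed by several fold in both genes, and the genotypes overlapped in each of these classes except for Cox4i2 in mural-like cells, which rested on 8 UMIs.

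Cox6a2, the heart and muscle form of Cox6a, had a range of 3.19. It had 57.4, 92.3, 31.3 and 143.8 CPM in monocyte/macrophage-like cells of metastasis-bearing brains, on 2194 UMIs, and 48.8, 12.1, 12.1 and 25.8 CPM in their microglia-like cells. In naive brains it was highest in the unnamed cluster led by Cd74 and Mrc1, with 143.2, 344.2, 75.1 and 157.4 CPM, and had 0, 17.7, 81.7 and 5.8 CPM in the unnamed cluster led by S100a8 and Lyz2. The 4 brains of a class spread over several fold, and the genotypes overlapped.

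Common paralogs were mostly higher in choroid plexus-like than in microglia-like cells. Cox4i1 had mean levels of 1491 CPM in choroid plexus-like and 759.7 CPM in microglia-like cells from metastasis-bearing brains, and 2507 and 546.6 CPM in naive brains. Cox8a had 1466 and 543.7 CPM in the same 2 classes of metastasis-bearing brains, and 2584 and 409.4 CPM in naive brains. Ndufa4 had 1058 and 296.4 CPM in metastasis-bearing, and 2199 and 218.4 CPM in naive brains. Cox7a2l, a paralog known for holding complexes III and IV together, ran the other way, with 150.4 CPM in choroid plexus-like and 372.4 CPM in microglia-like cells from metastasis-bearing brains, and 104.7 and 321.0 CPM in naive brains.

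The genes of subunit c, which forms the rotor ring of the ATP synthase, split between classes. Atp5g1 was highest in choroid plexus-like cells, with 607.2, 1256.6, 805.5 and 918.9 CPM in metastasis-bearing and 1593.6, 2027.1, 2524.8 and 2135.5 CPM in naive brains, against means of 215.3 and 142.4 CPM in microglia-like cells. Atp5g2 had means of 387.2 CPM in choroid plexus-like and 873.9 CPM in Krt8-high cells of metastasis-bearing brains, and 264.5 and 1203.8 CPM in naive brains.

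**Figure D2:**
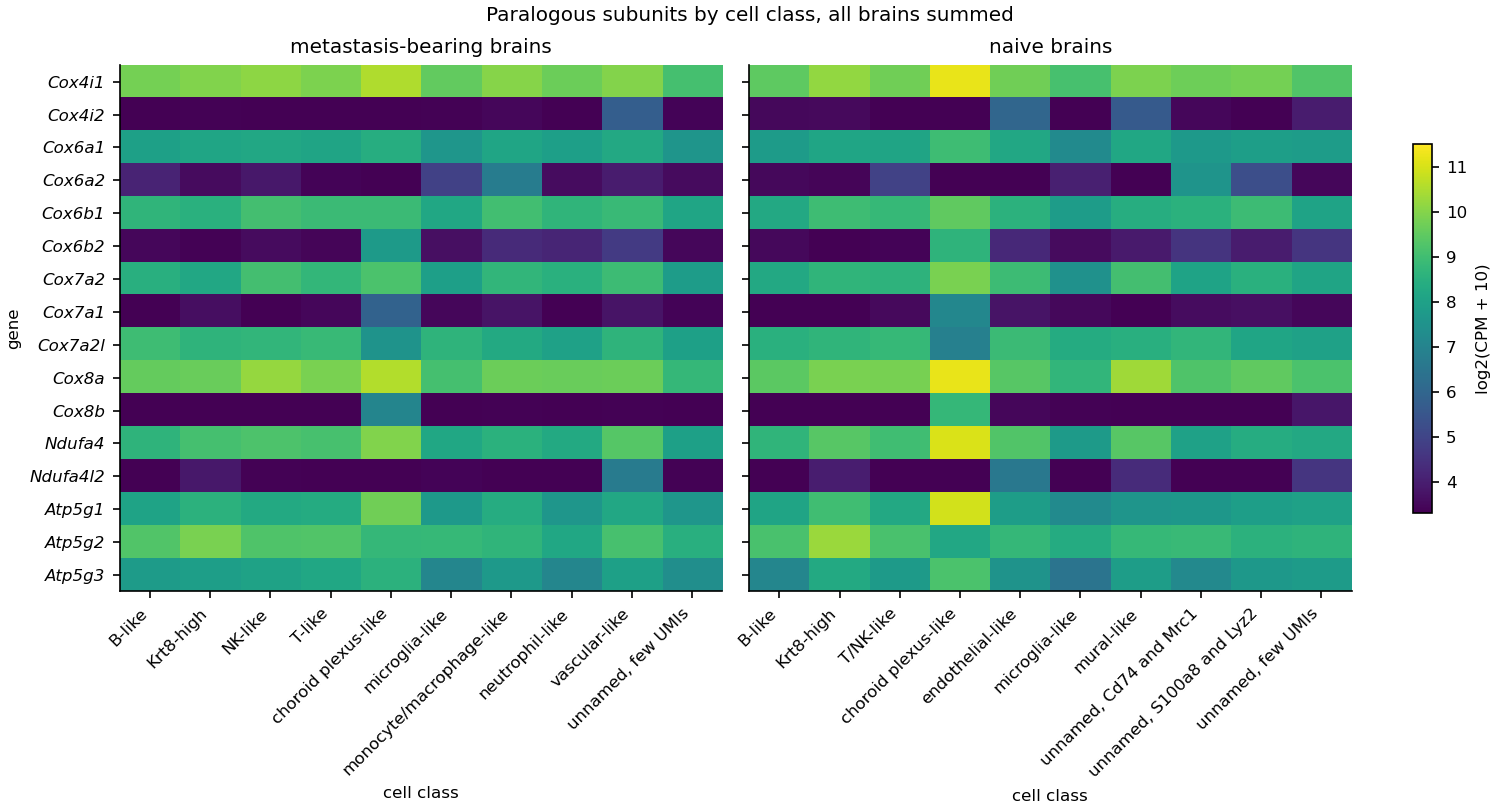
Levels of 16 subunits that exist in paralogous forms, as log2(CPM + 10) of all brains summed, by class, for metastasis-bearing brains on the left and naive brains on the right. Cox6b2 and Cox8b are brightest in the choroid plexus-like column, Ndufa4l2 and Cox4i2 in the vascular-like and endothelial-like columns, and the common forms in every column.

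The remaining wide ranges set Krt8-high or neutrophil-like cells apart. Ndufa1, a small complex I subunit encoded on the X chromosome, had 38.2, 36.7, 41.4 and 42.6 CPM in Krt8-high cells of metastasis-bearing brains, against 178.4, 173.5, 182.1 and 185.4 CPM in monocyte/macrophage-like and 294.1, 596.9, 482.0 and 338.8 CPM in choroid plexus-like cells. Ndufb11, another X-linked complex I subunit, had 85.4, 76.0, 84.4 and 76.5 CPM in Krt8-high and 360.5, 659.7, 482.0 and 415.0 CPM in choroid plexus-like cells. The 4 brains lay close together in Krt8-high cells for both genes. The complex I assembly factors Ndufaf4 and Ndufaf2 were highest in Krt8-high cells, whereas Ndufaf3 was lowest there, with a mean of 9.91 CPM, against 87.6 CPM in choroid plexus-like cells. Ndufaf4 had 69.6, 70.1, 69.3 and 89.3 CPM in Krt8-high and from 11.2 to 13.6 CPM in monocyte/macrophage-like cells. Ndufaf2 had 73.1, 70.3, 68.2 and 91.1 CPM in Krt8-high and from 11.6 to 15.7 CPM in monocyte/macrophage-like cells. Sdhc, a membrane anchor of complex II, had 151.8, 125.7, 107.8 and 127.0 CPM in choroid plexus-like and from 0 to 11.9 CPM in neutrophil-like cells. Sdhaf4, an assembly factor of complex II, had 94.9, 94.2, 114.2 and 80.5 CPM in choroid plexus-like and from 0 to 5.9 CPM in neutrophil-like cells, on 3 UMIs.

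The start regions of both restricted and both common forms of Cox6b and Cox8 are shown to set the paralogs beside each other. Those of Atp5k and Atp5h, ATP synthase subunits that stood out in the comparisons of genotypes and gates below, are shown because they hold the motif of NRF1, a transcription factor known for nuclear respiratory genes. Each sequence runs from 250 bases before to 50 bases after the RefSeq transcript start in GRCm38.p6, all 6 on the minus strand, and capitals mark the motif matches found by search. The windows are chr7:4753045-4753344 for Cox6b2, chr7:30626065-30626364 for Cox6b1, chr7:140900397-140900696 for Cox8b, chr19:7217567-7217866 for Cox8a, chr5:108434350-108434649 for Atp5k and chr11:115419870-115420169 for Atp5h.
Cox6b2: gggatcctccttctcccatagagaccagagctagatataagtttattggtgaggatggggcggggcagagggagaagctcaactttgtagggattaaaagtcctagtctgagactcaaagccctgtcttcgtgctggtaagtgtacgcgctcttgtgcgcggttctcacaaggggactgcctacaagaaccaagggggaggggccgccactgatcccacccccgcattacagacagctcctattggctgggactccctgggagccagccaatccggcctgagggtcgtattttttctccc
Cox6b1: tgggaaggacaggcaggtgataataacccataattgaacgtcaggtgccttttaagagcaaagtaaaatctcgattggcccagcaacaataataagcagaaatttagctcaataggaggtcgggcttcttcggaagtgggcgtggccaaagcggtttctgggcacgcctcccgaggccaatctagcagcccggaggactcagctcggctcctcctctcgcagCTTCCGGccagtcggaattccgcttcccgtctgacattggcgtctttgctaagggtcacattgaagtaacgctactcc
Cox8b: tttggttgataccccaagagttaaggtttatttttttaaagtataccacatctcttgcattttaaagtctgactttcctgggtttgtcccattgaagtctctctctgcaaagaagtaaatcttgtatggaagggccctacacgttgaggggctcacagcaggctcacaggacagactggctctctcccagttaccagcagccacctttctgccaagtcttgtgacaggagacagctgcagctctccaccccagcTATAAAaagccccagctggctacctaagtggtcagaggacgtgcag
Cox8a: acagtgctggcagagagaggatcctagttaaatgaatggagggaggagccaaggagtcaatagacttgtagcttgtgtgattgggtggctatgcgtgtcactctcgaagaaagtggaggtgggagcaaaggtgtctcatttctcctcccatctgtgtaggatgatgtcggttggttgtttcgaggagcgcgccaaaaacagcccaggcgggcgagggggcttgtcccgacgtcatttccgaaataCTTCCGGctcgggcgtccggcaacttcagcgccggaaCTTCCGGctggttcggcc
Atp5k: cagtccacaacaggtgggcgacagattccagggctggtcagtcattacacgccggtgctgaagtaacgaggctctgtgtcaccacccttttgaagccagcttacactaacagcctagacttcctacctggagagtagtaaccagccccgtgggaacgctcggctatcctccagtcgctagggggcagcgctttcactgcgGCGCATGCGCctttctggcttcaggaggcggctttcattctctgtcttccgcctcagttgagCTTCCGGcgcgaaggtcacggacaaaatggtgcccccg
Atp5h: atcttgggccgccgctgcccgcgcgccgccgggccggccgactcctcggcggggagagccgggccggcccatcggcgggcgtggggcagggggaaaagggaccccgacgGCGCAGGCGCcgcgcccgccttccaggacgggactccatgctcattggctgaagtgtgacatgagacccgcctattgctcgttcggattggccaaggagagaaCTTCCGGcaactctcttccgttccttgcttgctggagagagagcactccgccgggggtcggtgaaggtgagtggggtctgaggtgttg

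Motifs were searched on both strands. The NRF1 letters were GCGCA, any base and then GCGC (in capitals in Atp5k and Atp5h). The others were CCGGAAG for the ETS family, AAGATGGC for YY1 and TATAAA for the TATA box. Cox6b2 held none of these, Cox6b1 held 1 ETS match and Cox8a 2 ETS matches, all on the strand opposite to the one printed. Cox8b held TATAAA from base 5 after the start. Atp5k held the NRF1 letters at -50, which read the same on both strands, and 1 ETS match, and Atp5h held NRF1 letters at -141 and 1 ETS match. RefSeq windows were matched for 76 of the 94 nuclear members, in 81 promoters. The NRF1 letters were found in 25.93% of these and in 4.6% of all 32851 promoter windows of the same length. The ETS letters were found in 25.93% and 8.86%, the YY1 letters in 12.35% and 2.75%, and TATAAA in 9.88% and 13.62%. A match is a string of letters, not a measured binding site.

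The 13 mitochondrial transcripts did not make up the same mixture in every class. In microglia-like cells from metastasis-bearing brains mt-Co1, the catalytic subunit of complex IV, took 14.6, 13.8, 12.6 and 12.8% of mitochondrial UMIs, against 20.4, 21.1, 19.3 and 18.9% in monocyte/macrophage-like and 21.8, 22.5, 21.6 and 20.2% in Krt8-high cells. mt-Cytb, cytochrome b of complex III, took 13.03, 12.17, 13.79 and 13.21%, against 8.48, 8.07, 8.92 and 8.81% in monocyte/macrophage-like cells. mt-Nd2, a proton-pumping subunit of complex I, took 5.41, 5.47, 6.12 and 6.28%, against 3.52, 3.33, 3.72 and 3.82%. No brain overlapped between these classes for any of the 3 genes. In naive brains the same contrast held against T/NK-like cells for mt-Co1, with 12.5, 12.3, 10.9 and 11.6% in microglia-like cells, against 17.6, 17.0, 16.5 and 17.6%. For mt-Nd2 the naive shares were 7.44, 7.16, 7.87 and 7.52% in microglia-like cells, against 5.86, 5.03, 5.83 and 5.82%. mt-Nd3 had the widest range of CPM of the mitochondrial genes, 4.002 on the log2 scale, from a mean of 90.4 CPM in Krt8-high to 1598 CPM in choroid plexus-like cells. The 13 genes lie between bases 2751, the start of mt-Nd1, and 15288, the end of mt-Cytb, of the mitochondrial genome in GRCm38.p6. mt-Nd5 and mt-Nd6 share 14 bases of it. mt-Atp8 and mt-Atp6 share 43, mt-Nd4l and mt-Nd4 7 and mt-Atp6 and mt-Co3 1, so reads may be split unevenly within these last pairs.

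The authors' antibody gates allowed a test of microglia against other immune cells, because they were drawn on surface proteins and not on RNA. The fits compared the microglia gate (low CD45, CD11b positive) with the BMDM gate (bone marrow-derived myeloid cells) and the T cell gate within each brain, by limma with the brain as a block and Benjamini-Hochberg adjustment over all genes. The 8 brains share 1 preparation, so p-values measure the spread between brains. The gates did not hold pure RNA classes. Of 983 cells in the microglia gate of metastasis-bearing brains 591 were microglia-like, 187 of the few-UMI cluster and 127 monocyte/macrophage-like, and of 2204 cells in the BMDM gate 1346 were monocyte/macrophage-like and 564 NK-like. The T cell gate held 922 T-like cells of 1041. In naive brains the microglia gate held 1204 microglia-like and 491 few-UMI cells of 1860, and the BMDM gate 248 cells in all. No fit over genes was made for the naive T cell gate, since 1 brain had 17 cells in it. Its shares are given below with that limit.

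With all cells of the gates, nuclear members were lower and mitochondrial genes higher in the microglia gate. In metastasis-bearing brains, 36 of 84 nuclear members tested were lower in the microglia gate than in the BMDM gate and 1 was higher, against 19.1% of all 7316 genes tested that were lower and 21.4% that were higher. The median log2 difference of the nuclear members was -0.28, against 0.03 over all genes. All 13 mitochondrial genes were higher, by 0.77 to 1.78 with a median of 1.23. Against the T cell gate 44 of 84 nuclear members were lower and 1 was higher, with a median of -0.35, where 21.6% of 7400 genes were lower and 24.1% higher. All 13 mitochondrial genes were again higher, with a median of 1.12. In naive brains 36 of 83 nuclear members were lower than in the BMDM gate and 0 higher (median -0.35), where 19.7% of 8214 genes were lower and 19.7% higher, and 8 of 13 mitochondrial genes were higher (median 0.43).

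The counts were smaller in narrower gates. The few-UMI and NK-like clusters were left out, a choice made after the data were seen. In that fit 15 nuclear members were lower and 3 higher than in the BMDM gate of metastasis-bearing brains. Of all 7371 genes tested there 18.4% were lower and 25.7% higher, so the lower count of members was near the share of all genes. The mitochondrial genes that remained higher were 11, with a median of 0.50. Against the T cell gate 35 nuclear members were lower and 2 higher, where 20.3% of genes were lower and 25.6% higher. There 3 mitochondrial genes were higher, mt-Cytb by 0.38, mt-Nd3 by 0.39 and mt-Nd4 by 0.46, and mt-Co1 was lower by a log2 difference of -0.37. In naive brains 28 nuclear members were lower and 0 higher than in the BMDM gate, where 15.3% of genes were lower and 18.4% higher, and 5 mitochondrial genes were higher and mt-Co1 lower (-0.53). The naive counts without the Krt8-high cluster were 30 nuclear members lower and 7 mitochondrial genes higher. The share of all genes in that fit is not given here, so these counts cannot be set against it. Single brains moved the nuclear count and the count over all genes together. Against the BMDM gate of metastasis-bearing brains 14 of 83 nuclear members and 904 of 7238 genes were lower without the first Cx3cr1-/- brain, and 21 of 84 members and 1116 of 7277 genes without the first Cx3cr1+/- brain. Without the second Cx3cr1+/- brain 9 of 84 members and 929 of 7332 genes were lower, so the members were then not lower more often than all genes. For the T cell gate, 23 of 83 members and 1091 of 7321 genes were lower without the first Cx3cr1-/- brain, and 25 of 84 members and 1136 of 7454 genes without the second Cx3cr1+/- brain. In naive brains 15 of 83 members and 1092 of 8162 genes were lower without the second Cx3cr1-/- brain, and 18 of 83 members and 1125 of 8203 genes without the first Cx3cr1+/- brain.

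With all cells of the gates, complex IV and the ATP synthase had the highest proportions of lower members. Against the BMDM gate of metastasis-bearing brains 9 of 12 complex IV members, 8 of 15 ATP synthase members, 12 of 37 complex I subunits, 3 of 8 complex III members and 2 of 4 complex II members were lower. Against the T cell gate the counts were 9 of 12, 11 of 15, 17 of 37, 3 of 8 and 1 of 4 in the same order. In naive brains 10 of 11 complex IV, 13 of 15 ATP synthase, 8 of 37 complex I, 4 of 8 complex III and 1 of 4 complex II members were lower than in the BMDM gate. The lists against the BMDM gate shared 26 members, which is 72.2% of the 36 in each state: 9 of complex IV, 8 of the ATP synthase, 6 of complex I and also Sdhd, Uqcrh and Uqcrq. Of all genes tested, 19.1, 21.6 and 19.7% were lower in these 3 comparisons, and complex I in naive brains, with 8 of 37, was near that share. The overlap of the lists was not counted over all genes, and counts by complex were not made in the narrower gates. The difference between complexes itself was not tested.

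Cox5b was the nuclear member with the largest change against the BMDM gate of metastasis-bearing brains. It had 307.1, 370.0, 236.3 and 304.3 CPM in the microglia gate, against 492.3, 477.2, 447.2 and 493.9 CPM in the BMDM gate, a log2 difference of -0.65 (SE 0.11, adjusted p = 0.00485, limma). In naive brains it had 209.2, 183.3, 188.4 and 182.9 CPM, against 257.1, 378.9, 371.5 and 385.5 CPM, a log2 difference of -0.82 (SE 0.15, adjusted p = 0.00209, limma). The gates did not overlap in either state. Atp5l, subunit g of the ATP synthase membrane part, had 417.5, 488.6, 344.2 and 426.8 CPM in the microglia gate, against 642.7, 597.8, 603.2 and 641.1 CPM in the BMDM gate of metastasis-bearing brains (log2 difference -0.57, SE 0.11). The complex I subunits Ndufs4 (-0.58) and Ndufb7 (-0.56) and the complex IV subunit Cox7b (-0.53) followed. Ndufa9, a subunit near the ubiquinone site of complex I, was the exception. It had 69.7, 79.1, 73.2 and 69.8 CPM in the microglia gate, against 54.9, 50.5, 50.3 and 62.1 CPM in the BMDM gate, and was higher by 0.37 on the log2 scale.

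Against the T cell gate the hinge protein of complex III, Uqcrh, showed the clearest gap. It had 388.0, 482.9, 396.7 and 410.5 CPM in the microglia gate, against 830.8, 804.7, 830.4 and 853.6 CPM in the T cell gate, a log2 difference of -0.97 (SE 0.10, adjusted p = 0.000447, limma). Sdhaf1, an assembly factor of complex II, had 17.7, 24.7, 19.1 and 19.5 CPM, against 61.4, 55.6, 55.2 and 30.7 CPM (log2 difference -0.98, SE 0.17). Ndufb11 (-0.75), Ndufb7 (-0.73) and Atp5h (-0.70) were the other members with the largest decreases. Sdhc was higher in the microglia gate, by 0.54.

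In naive brains Atp5e, the small epsilon subunit of the ATP synthase, had 378.2, 363.3, 350.5 and 349.7 CPM in the microglia gate, against 605.1, 661.7, 735.6 and 611.8 CPM in the BMDM gate, a log2 difference of -0.84 (SE 0.10, adjusted p = 0.000269, limma). Atp5h, subunit d of the stalk, had 291.7, 278.8, 270.2 and 268.0 CPM, against 439.0, 546.5, 471.3 and 399.4 CPM (log2 difference -0.71). Cox5a had 191.7, 175.5, 172.3 and 171.0 CPM, against 253.1, 384.0, 297.6 and 293.2 CPM (log2 difference -0.74). The complex I subunit Ndufb6 was lower by a log2 difference of -0.73. The microglia gate was narrow in each of these genes, and the BMDM gate, with few cells per brain, was wide.

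**Figure D3:**
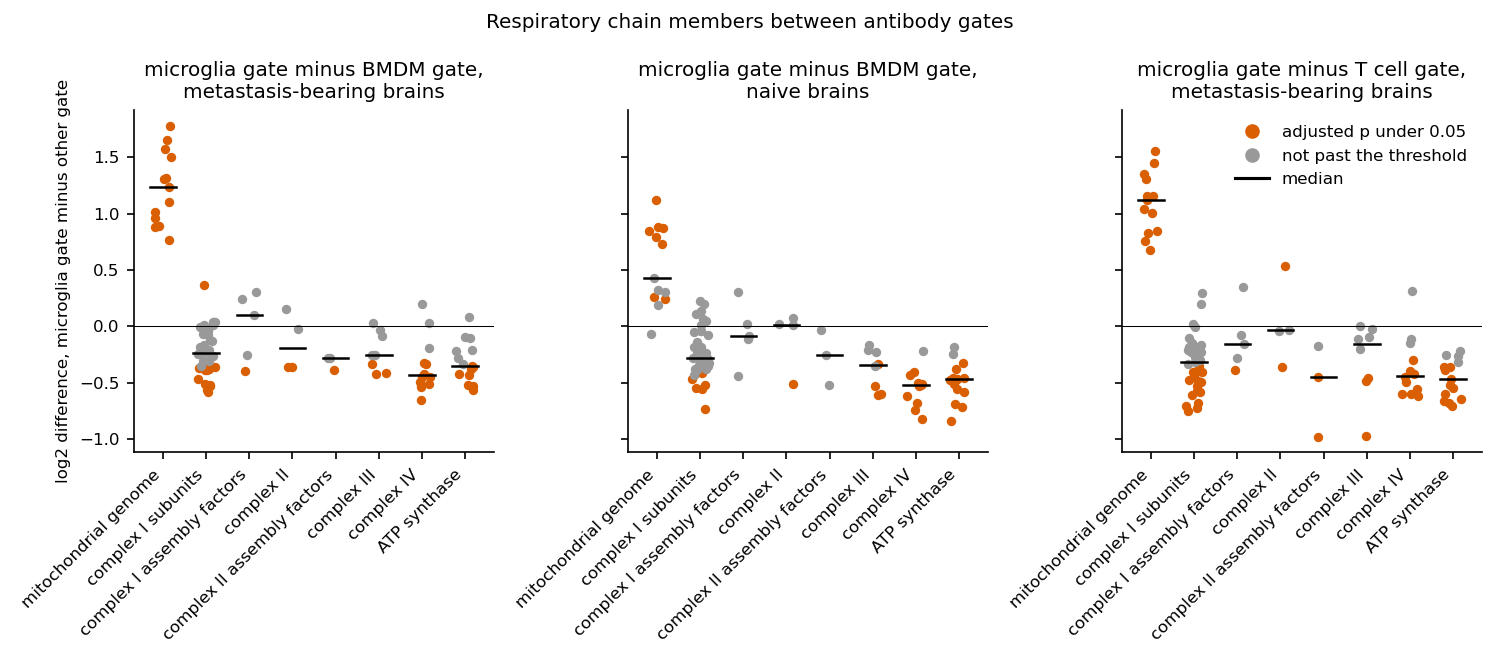
Log2 difference of each member between the authors' gates (microglia gate minus the other gate), by complex, with all cells of the gates. Orange points have an adjusted p below 0.05, grey points are the rest and a black line marks the median of each group. The medians of complex I, III and IV and the ATP synthase lie below 0 in all 3 panels and that of the mitochondrial genes above it, with single genes between 0.77 and 1.78 against the BMDM gate of metastasis-bearing brains.

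Among the mitochondrial genes, the complex I and III transcripts had the largest differences with all cells of the gates. mt-Cytb had 13478, 10003, 8876 and 8183 CPM in the microglia gate of metastasis-bearing brains, against 2875, 2584, 3126 and 3019 CPM in the BMDM gate, a log2 difference of 1.78 (SE 0.15, adjusted p = 0.000365, limma). mt-Nd2 (1.65), mt-Nd1 (1.57), mt-Nd4 (1.503) and mt-Atp6 (1.32) followed. Against the T cell gate the order began with mt-Cytb (1.56, SE 0.19), mt-Nd4 (1.45), mt-Nd2 (1.35), mt-Nd1 (1.31) and mt-Co3 (1.15). In naive brains mt-Nd2 had 3543, 3306, 3541 and 3413 CPM in the microglia gate, against 1495, 1335, 1813 and 1718 CPM in the BMDM gate, a log2 difference of 1.12 (SE 0.08, adjusted p = 0.000020, limma). mt-Nd3 (0.88), mt-Nd1 (0.87), mt-Nd4 (0.84) and mt-Cytb (0.79) followed.

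The mixture of mitochondrial transcripts differed between gates also where the total did not. The mt-Nd genes and mt-Cytb together took 31.0, 28.6, 35.6 and 32.4% of mitochondrial UMIs in the microglia gate of metastasis-bearing brains, against 24.9, 22.4, 26.6 and 26.0% in the BMDM gate. In naive brains they took 39.7, 40.4, 41.4 and 40.8%, against 29.8, 27.8, 31.1 and 29.6%. The share was higher in the microglia gate in 4 of 4 brains of each state, by a mean of 6.92 percentage points in metastasis-bearing and 11.0 in naive brains (two-sided exact permutation test within brains, p = 0.125, the smallest that 4 pairs allow). Against the T cell gate the differences were 5.08 and 10.8 points, again in 4 of 4 brains. Without the few-UMI and NK-like clusters they were 9.25 and 10.2 points against the BMDM gate and 7.87 and 8.91 points against the T cell gate. The mt-Co genes, the complex IV core, ran the other way, with 49.4% in the microglia gate, against 57.0% in the BMDM gate of metastasis-bearing brains, and 43.9%, against 52.4%, in naive brains.

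**Figure D4:**
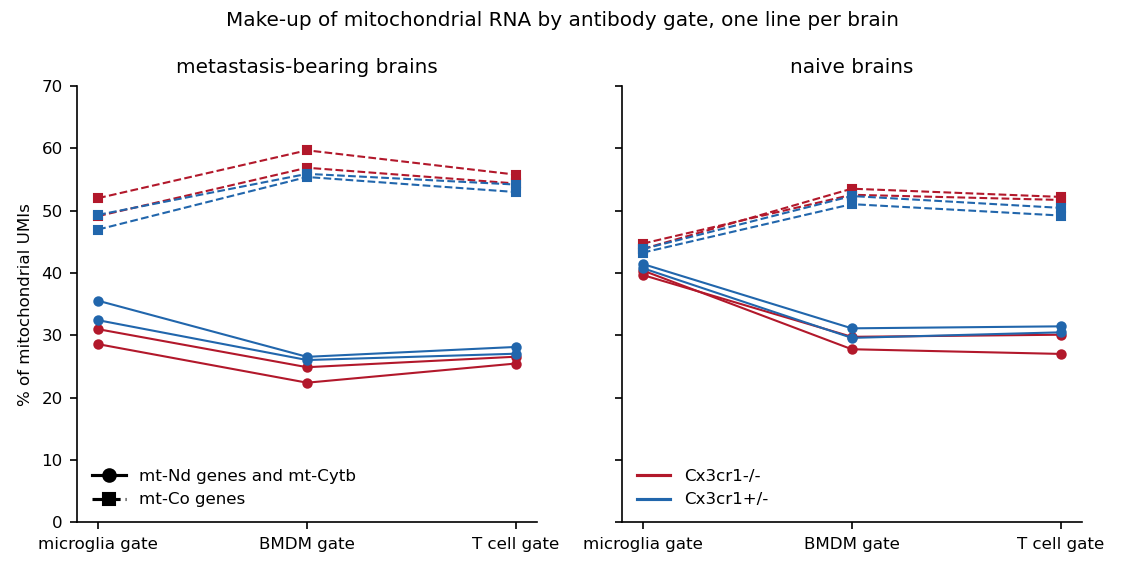
Percent of mitochondrial UMIs taken by the mt-Nd genes and mt-Cytb (solid lines) and by the mt-Co genes (dashed lines) in each gate, 1 line per brain. The solid lines are highest in the microglia gate in every brain, at 28.6 to 35.6% in metastasis-bearing and 39.7 to 41.4% in naive brains.

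As shares of all UMIs, the mitochondrial genes took 8.23 ± 2.04% in the microglia gate of metastasis-bearing brains, against 3.35 ± 0.08% in the BMDM gate, and 3.503 against 2.406% without the 2 clusters. With the T cell gate (3.61 ± 0.45%) on the other side the difference was 4.62 points, and -0.0445 points, with 2 of 4 brains higher, without the clusters. In naive brains they took 4.46 ± 0.20%, against 3.35 ± 0.20%, and 2.62 against 2.67% without the clusters. Against the naive T cell gate the difference was 0.351 points, with 3 of 4 brains higher, and -1.29 points, with 0 of 4 brains higher, without the clusters. The nuclear members took 1.65 ± 0.16%, against 2.06 ± 0.11% in the BMDM gate and 2.23 ± 0.04% in the T cell gate of metastasis-bearing brains, and 1.29 ± 0.07%, against 1.74 ± 0.12% in the BMDM gate of naive brains. With all cells of the gates the nuclear share was lower in the microglia gate in 4 of 4 brains of each of these comparisons (two-sided exact permutation test, p = 0.125, the smallest possible). Without the clusters it was higher in 1 of 4 metastasis-bearing brains against the BMDM gate (mean difference -0.265 points, exact p = 0.25).

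Genes around the respiratory chain were counted in the same gates. Of all genes tested, 19.1% were lower and 21.4% higher against the BMDM gate of metastasis-bearing brains. These shares were 21.6 and 24.1% against the T cell gate, and 19.7 and 19.7% against the BMDM gate of naive brains. Of the cytosolic ribosomal proteins 27 of 79 were lower in the microglia gate than in the BMDM gate of metastasis-bearing brains (median -0.27), 75 of 79 against the T cell gate (median -0.86) and 76 of 79 in naive brains (median -0.72). The mitochondrial ribosome, which translates the mt- transcripts, had 12 of 74 lower and 2 higher (median -0.08), 19 of 73 lower and 2 higher (-0.22) and 29 of 74 lower and 0 higher (-0.41) in the same comparisons. The first of these lower counts lay below the share of all genes and the next near it. Malat1, a nuclear RNA of the list for RNA quality, was higher by 0.82, 0.78 and 0.97. Cycs, cytochrome c, was lower in all 3, by log2 differences of -0.72, -0.32 and -0.76. Of 16 citric acid cycle genes 4 were higher and 1 lower against the BMDM gate of metastasis-bearing brains, including Suclg2 (0.78) and Idh2 (0.68), and 4 were higher and 2 lower against the T cell gate. In naive brains 1 was higher and 3 were lower, including Cs, citrate synthase (-0.85). The higher counts in metastasis-bearing brains and the lower count in naive brains were near the shares of all genes. Mpc1, a subunit of the pyruvate carrier, was higher in all 3 comparisons (0.32, 0.65 and 0.51). Mpc2, the other carrier subunit on the list, was lower against the BMDM gate of metastasis-bearing (-0.42) and naive brains (-0.59). It was not called against the T cell gate. Of the regulators of mitochondrial biogenesis 0 of 8 passed against the BMDM gate of metastasis-bearing brains. Tfam, which binds mitochondrial DNA, was lower against the T cell gate (-0.85), and Slirp, which binds mitochondrial RNA, in naive brains (-0.49). The part of ribosomal and RNA-quality transcripts in the members' differences was not tested.

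No member was called between genotypes in any class. Homozygous and heterozygous brains were compared in 8 classes, 6 of metastasis-bearing and 2 of naive brains, with 2 brains per genotype. The share of all genes called was 0.0250% in Krt8-high cells, 0.0143% in monocyte/macrophage-like, 0.0% in T-like, 0.0814% in microglia-like, 0.0476% in NK-like and 0.0% in vascular-like cells of metastasis-bearing brains, and 0.572% in microglia-like and 0.215% in T/NK-like cells of naive brains. Between metastasis-bearing and naive microglia-like cells the genotype effect was called different for 0 members and 0.0142% of genes. At an unadjusted p under 0.05 there were 5 nuclear and 0 mitochondrial members among 635 of 7374 genes in microglia-like cells from metastasis-bearing brains, and 6 and 2 among 655 of 7693 genes in those of naive brains. Krt8-high cells had 3 and 6 among 486 of 8011 genes, monocyte/macrophage-like cells 0 and 3 among 535 of 6980, and T-like cells 0 and 8 among 297 of 6524. NK-like cells had 0 and 3 among 254 of 6299, vascular-like cells 1 and 11 among 918 of 8896, and naive T/NK-like cells 4 and 3 among 408 of 7453, and the interaction had 11 and 0 among 596 of 7065.

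Leaving out 1 heterozygous brain gave calls in some classes, over all genes as well as members. The lone Cx3cr1+/- brain is then assumed to vary like the Cx3cr1-/- brains. In Krt8-high cells 26 of 99 members and 2024 of 7998 genes were called without the first Cx3cr1+/- brain, and 5 of 99 members and 173 of 8019 genes without the second. In NK-like cells 17 of 97 members and 920 of 6263 genes were called without the second Cx3cr1+/- brain. T-like cells had 1 member called without the first (67 of 6559 genes) and 2 without the second (240 of 6537 genes), and monocyte/macrophage-like cells 2 without the second (230 of 6946 genes). The interaction called 1 member without the first or the second metastasis-bearing Cx3cr1-/- brain (313 of 6999 and 173 of 7105 genes).

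In microglia-like cells from metastasis-bearing brains the nuclear members leaned upward in the Cx3cr1-/- brains. Their share was 1.595 and 1.495% in Cx3cr1-/- brains, against 1.352 and 1.344% in Cx3cr1+/- brains, a difference of 0.197 percentage points (two-sided exact permutation test, p = 0.333, the smallest that 2 against 2 brains allow). Of 85 nuclear members tested 74 had a positive log2 difference, with a median of 0.18 against 0.01 over all genes, and 51.6% of all genes were positive. Cx3cr1-/- and Cx3cr1+/- brains were apart without overlap for 47 of the 85, where 40.6% of all genes did not overlap. Atp5k, subunit e of the ATP synthase, had the smallest p, with 167.0 and 155.4 CPM in Cx3cr1-/- brains, against 116.2 and 110.3 CPM in Cx3cr1+/- brains, a log2 difference of 0.47 (SE 0.15, adjusted p = 0.459, limma). Ndufa2, a complex I subunit, had 242.1 and 284.0 CPM, against 196.9 and 181.9 CPM (0.45, adjusted p = 0.482, limma). Ndufa13, also known as Grim19, had 297.4 and 305.9 CPM, against 223.1 and 229.4 CPM (0.40, adjusted p = 0.484, limma). The genotypes did not overlap in these 3 genes. The class had 85 and 35 cells in the Cx3cr1-/- brains, against 390 and 144 cells in the Cx3cr1+/- brains. The median cell had 12596 and 8335 raw UMIs in the Cx3cr1-/- brains, against 7850.5 and 8928.5 in the Cx3cr1+/- brains, and in cells of 5000 to 15000 raw UMIs the difference in nuclear share was 0.106 points and 60 members were positive. Other lists had medians of like size in this comparison: 0.15 for 6 inner membrane transporters, 0.14 for 75 mitochondrial ribosomal genes, 0.14 for 18 electron carrier genes and 0.12 for 79 cytosolic ribosomal genes, against -0.07 for 16 citric acid cycle genes.

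Naive microglia-like cells had no such lean by cluster, although 64 of 83 nuclear members were positive with a median of 0.08, against 0.01 over all genes, in the authors' naive microglia gate. Their nuclear share was 1.10 and 1.05% in Cx3cr1-/- brains, against 1.06 and 1.09% in Cx3cr1+/- brains, the median of the nuclear members was -0.01, and Atp5k had 72.1 and 75.7 CPM, against 78.5 and 76.7 CPM. The members with the smallest p there were mt-Nd4l, with 149.5 and 130.3 CPM in Cx3cr1-/- brains, against 172.0 and 190.3 CPM in Cx3cr1+/- brains (log2 difference -0.35, SE 0.10, adjusted p = 0.139, limma), Ndufs3 (0.38, adjusted p = 0.288, limma) and the assembly factor Ndufaf7 (0.41, adjusted p = 0.315, limma). In the test of the interaction 68 of 83 nuclear members were positive, with a median of 0.19, against -0.03 over all genes. Its smallest p values were those of Atp5k (0.54, SE 0.17, adjusted p = 0.504, limma), Ndufa2 (0.48) and Ndufa13 (0.41).

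Mitochondrial genes of vascular-like cells leaned downward. The mitochondrial share was 4.13 and 4.71% in Cx3cr1-/- brains, against 5.91 and 5.76% in Cx3cr1+/- brains, a difference of -1.41 points (two-sided exact permutation test, p = 0.333, the smallest possible). All 13 genes had a negative log2 difference, with a median of -0.41, and 11 did not overlap between genotypes, where 42.8% of all genes did not overlap. mt-Nd5 had 338.1 and 334.9 CPM, against 509.6 and 499.7 CPM (-0.57, SE 0.11, adjusted p = 0.219, limma), followed by mt-Nd2 (-0.46, adjusted p = 0.237, limma) and mt-Atp6 (-0.41, adjusted p = 0.287, limma). Depth moved with this: the median cell had 10982 and 12320 raw UMIs in Cx3cr1-/- brains, against 7767 and 7749 in Cx3cr1+/- brains, and the mitochondrial share of vascular-like cells was 11.0% in cells of up to 2500, 5.62% up to 5000, 6.03% up to 10000, 5.37% up to 20000 and 3.02% over 20000 raw UMIs. Over the 3 genes of the RNA-quality list the median log2 difference here was -0.49. Within cells of 5000 to 15000 raw UMIs the shares were 5.38 and 6.14% in Cx3cr1-/- brains, against 5.90 and 5.91% in Cx3cr1+/- brains, and the 13 genes had a median log2 difference of 0.00.

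T-like cells showed opposite orders in the 2 states. In metastasis-bearing brains the mitochondrial share was 3.48 and 3.52% in Cx3cr1-/- brains, against 3.848 and 3.998% in Cx3cr1+/- brains, and in T/NK-like cells of naive brains it was 4.28 and 4.22%, against 3.93 and 3.71%. The log2 ratio of mitochondrial to nuclear UMIs differed by -0.18 and by 0.14 (two-sided exact permutation test, p = 0.333 each, the smallest possible). In cells of 5000 to 15000 raw UMIs these differences were -0.165 and -0.0156. The RNA-quality list had medians of -0.06 in T-like cells of metastasis-bearing brains and 0.44 in naive T/NK-like cells, and its part was not tested. The nuclear members had medians of 0.01 and 0.02. The smallest p values in T-like cells were those of mt-Nd2 (-0.31, SE 0.07, adjusted p = 0.622, limma), mt-Nd1 (-0.24) and mt-Nd3 (-0.31), and in naive T/NK-like cells those of Cox6a2 (1.22, SE 0.43, adjusted p = 0.769, limma), Sdhaf1 (0.89) and mt-Co3 (0.20). Cox6a2 there had 15.3 and 48.1 CPM in Cx3cr1-/- brains, against 6.02 and 6.89 CPM in Cx3cr1+/- brains.

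**Figure D5:**
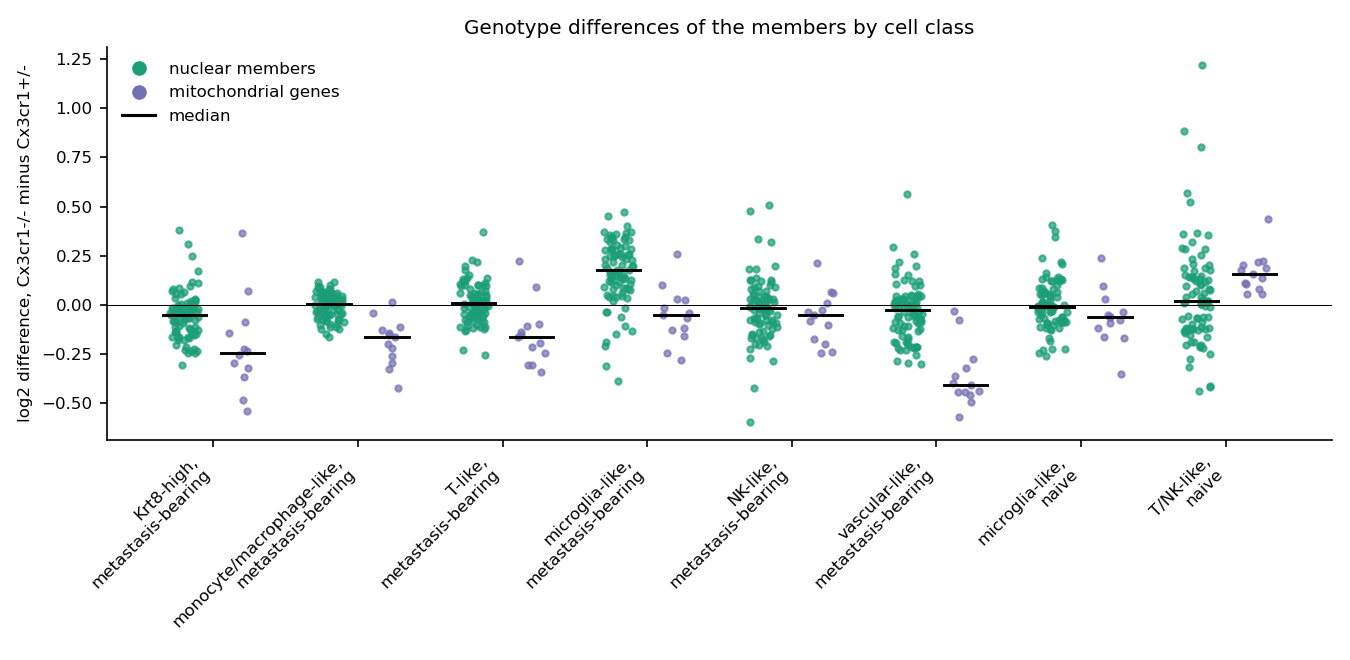
Log2 difference, Cx3cr1-/- minus Cx3cr1+/-, of each nuclear (green) and mitochondrial (purple) member by class and state, with a line at each median. The nuclear median of microglia-like cells from metastasis-bearing brains lies at 0.18 and the mitochondrial median of vascular-like cells at -0.41, and no point passed the adjusted threshold.

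In the remaining classes the mitochondrial medians were -0.25 in Krt8-high, -0.16 in monocyte/macrophage-like and -0.05 in NK-like cells, and the nuclear medians -0.05, 0.00 and -0.02. mt-Nd1 had 574.3 and 649.4 CPM in Krt8-high cells of Cx3cr1-/- brains, against 825.1 and 964.2 CPM in those of Cx3cr1+/- brains (-0.54, SE 0.11, adjusted p = 0.476, limma), ahead of mt-Nd4 (-0.37) and mt-Co2 (-0.32). The genes with the smallest p in monocyte/macrophage-like cells were mt-Nd3 (-0.42, adjusted p = 0.415, limma), mt-Nd1 (-0.33) and mt-Nd2 (-0.30), and in NK-like cells mt-Nd2 (-0.25, adjusted p = 0.927, limma), mt-Nd4 (-0.24) and mt-Cytb (-0.20). No gene of the ribosomal, citric acid cycle, electron carrier, transporter, biogenesis or RNA-quality lists was called in any genotype comparison. With 2 brains per genotype the intervals of these differences are wide, and a p that misses the threshold does not show that the genotypes were alike.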

How the data were processed

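Single-cell RNA of 8 hashtagged brains was measured in 1 pooled preparation. Per the submitters' processing notes, reads were processed with Cell Ranger 3.1 and Seurat 3.1.1 on mm10. The deposited RNA tables hold the natural log of 1 plus a whole, depth-corrected UMI count, which was recovered by inverting the log (100% of nonzero values were whole within 1e-06). The correction was made by the authors separately for each table. The deposited raw UMI count per cell was used for depth, and the deposited percent of mitochondrial reads, which was 0 in every cell, was not used. Corrected UMIs were summed per brain and class or gate, scaled to CPM and tested as log2(CPM + 10) for genes with a mean above 10 CPM, by limma 3.58.1 (lmFit, eBayes with trend) with Benjamini-Hochberg adjustment over all genes tested at 0.05. Shares were compared by two-sided exact permutation tests over brains. The method was tested on simulated data. Clusters are the authors', named here from marker lists, and gates are the authors'. Doublets were treated only through the authors' singlet labels.

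The members and lists were chosen with earlier results of these data known. Named were all mitochondrial genes, paralogs, core subunits, the 10 widest ranges over classes and, per comparison, all called members up to 12, otherwise the 5 largest changes per direction without overlap, or the 3 smallest p values where none was called. The lists around the chain (ribosomes, electron carriers, citric acid cycle, transporters, biogenesis, RNA quality) are given as counts and medians. Alternatives changed the pseudocount, filter, scaling, denominator, variance trend, block, cells and replicates. Antibody tag and hashtag counts entered only through the authors' gates and assignments.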

Additional observations from a re-analysis of the deposited data

Results flagged for a closer look

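The mitochondrial share in T cells ran in opposite genotype orders in the 2 states. In T-like cells of metastasis-bearing brains both Cx3cr1-/- brains lay below both Cx3cr1+/- brains, with a mean difference of -0.426 percentage points, and in T/NK-like cells of naive brains both lay above, with a difference of 0.432 points. The log2 ratio of mitochondrial to nuclear members likewise differed by -0.179 in T-like cells of metastasis-bearing brains and by 0.143 in T/NK-like cells of naive brains. The difference between the states was not tested, and the naive class also holds NK cells. In cells of 5000 to 15000 raw UMIs the ratio differed by -0.165 in metastasis-bearing and by -0.0156 in naive brains. The 3 genes of the RNA-quality list had a median log2 difference of -0.06 in the metastasis-bearing and 0.44 in the naive comparison.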

How the results depend on the processing

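Over the main results 274 alternative values were like the main one, 14 turned sign, 10 were weaker and 9 stronger. Like means a count of called members within 1.5 times, or a share or ratio difference of the same sign. Of the values of named members 717 kept their direction and side of the threshold, 3 turned sign, 6 were weaker and 14 stronger. Members called by genotype, 0 in each class with all brains, ranged with 1 brain left out from 0 to 26 in Krt8-high, 0 to 2 in monocyte/macrophage-like, 0 to 2 in T-like and 0 to 17 in NK-like cells and from 0 to 1 for the interaction, where the fits with 26 and 17 also called 2024 of 7998 and 920 of 6263 genes. Nuclear members lower in the microglia gate ranged with 1 brain left out from 9 to 40 against the BMDM gate and from 23 to 47 against the T cell gate of metastasis-bearing brains, and from 15 to 47 against the BMDM gate of naive brains. At the low end of 9 of 84, 929 of 7332 genes were lower. Calls over all genes, in either direction, reached 2794 of 7382, 3237 of 7422 and 3768 of 8217 in the same comparisons with 1 brain left out. Against the BMDM gate of metastasis-bearing brains 55 nuclear members were lower with median-ratio scaling, given without the share of all genes. Without the few-UMI and NK-like clusters 15 nuclear members were lower against that gate, where 18.4% of 7371 genes were lower. The mitochondrial genes higher were then 3 against the T cell gate of metastasis-bearing brains and 5 in naive brains, and mt-Co3 turned to -0.0677 against the T cell gate.

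Several genotype differences turned sign. With 1 brain left out, the log2 ratio of mitochondrial to nuclear members ranged from -0.0575 to 0.0134 in NK-like and from -0.107 to 0.0262 in naive microglia-like cells. The mitochondrial share ranged from -0.465 to 0.144 points in microglia-like cells of metastasis-bearing and from -0.235 to 0.0780 in those of naive brains, and the nuclear share of the naive ones from -0.0253 to 0.0205. With the microglia gate in place of the clusters the ratio was 0.327 and the mitochondrial share 3.08 in metastasis-bearing brains, and the mitochondrial and nuclear shares 0.205 and 0.0782 in naive brains. With all deposited cells the mitochondrial share of metastasis-bearing microglia-like cells was 0.272. In cells of 5000 to 15000 raw UMIs the ratio was 0.0267 in vascular-like and -0.0156 in naive T/NK-like cells, and in vascular-like cells mt-Nd2 was at 0.0012 and mt-Atp6 at 0.0. The cause was not tested. That window was not run for Krt8-high and NK-like cells, which had as few as 1 and 8 cells in a brain. Alternatives chosen after seeing the data left the few-UMI and NK-like clusters, the Krt8-high cluster or cells over 10% mitochondrial share out. Leaving the brain block out of the gate fits turned no median, kept the counts of nuclear members lower and mitochondrial genes higher within 1.5 times, and gave 2 nuclear members higher against the T cell gate in place of 1. No paired analysis was possible because the labels give no replicate numbers that tie brains of different genotypes together. Depth limits the rare paralogs, which rest on under 120 UMIs in choroid plexus-like cells.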

Other observations

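The few-UMI cluster entered no genotype comparison. Its mitochondrial share was 36.2 and 32.4% in metastasis-bearing Cx3cr1-/- brains, against 26.7 and 24.9% in metastasis-bearing Cx3cr1+/- brains, and 13.73 and 11.19% in naive Cx3cr1-/- brains, against 11.99 and 15.18% in naive Cx3cr1+/- brains. Its nuclear share was 1.08 and 1.28%, against 1.49 and 1.47%, in metastasis-bearing brains. Both orders in metastasis-bearing brains were seen without overlap. The median cell of the cluster had 3453 and 2453 raw UMIs in the Cx3cr1-/- brains, against 1435 and 1847 in the Cx3cr1+/- brains.

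Choroid plexus-like cells, with 37 cells in metastasis-bearing brains, were too few per brain to test. Their mitochondrial share was 4.08 and 6.31% in Cx3cr1-/- brains, against 8.31 and 7.74% in Cx3cr1+/- brains, and their nuclear share 2.78 and 3.39%, against 2.99 and 3.21%. In naive brains the mitochondrial share was 9.98 and 8.50%, against 5.69 and 9.63%, from 6, 7, 1 and 8 cells. The metastasis-bearing values came from 7, 2, 11 and 17 cells. With so few cells in a brain, the genotype orders of the states cannot be compared.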
